A study of Mus musculus with 56 samples.

Results

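Macrophages sorted from injured muscle were compared with macrophages sorted from injured skin 4 days after injury, in mice that kept their regulatory T cells (Tregs). The comparison covers every gene with enough counts, and its members are the 7 libraries labelled as control, day 4, from these tissues: 3 from muscle and 4 from skin, of 56 libraries in the series and 44 in the deposited table of bone, muscle and skin. Both groups came from wild-type C57BL/6J mice aged 10 weeks that had received diphtheria toxin at 20 ng per g of body weight into the peritoneum, from before the injury onwards. These mice lack the toxin receptor transgene, so the toxin served as the control for the depleted mice of the series, which carry Foxp3(DTR/GFP). The muscle injury was a volumetric muscle loss defect and the skin injury a full-thickness biopsy punch, with 1 injury per mouse. The sorted population was labelled monocytes/macrophages and sequenced in bulk. The tissue, the kind of wound and whatever was done to release the cells differ together between the groups and cannot be told apart. The labels do not say whether each library came from a separate mouse or from a pool, so the p-values measure only a spread between libraries. That spread was estimated in 1 fit of all 44 libraries of the table. The same tissue contrast in other libraries (control day 7, and Treg-depleted day 4, each with 3 muscle and 4 skin libraries) is given beside it.

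Macrophages in a fresh wound come mainly from blood monocytes that enter within days and then change from cells that release inflammatory cytokines into cells that take up dead cells, digest them in lysosomes and release growth factors. The surface receptors Mertk and Axl and the bridging protein Mfge8 serve the uptake of dying cells, the enzymes of the lysosome break down what was taken up, and lipid-handling genes such as Gpnmb, Trem2 and Lpl rise in macrophages loaded with membrane lipid. The factor NF-kappaB, held in the cytoplasm by the inhibitor encoded by Nfkbia, drives interleukin-1, tumour necrosis factor and the neutrophil-attracting CXC chemokines.

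The 7 libraries held 3013776 to 6397434 estimated counts each. Levels are given in CPM, counts scaled to 1000000 per library after normalization over all genes. The largest axis of variation, with 45.0% of the variance, separated the tissues: the muscle libraries lay between 36.0 and 43.1 and the skin libraries between -36.1 and -22.8. Correlations of log2 CPM ran from 0.965 to 0.980 within a tissue and from 0.942 to 0.959 between tissues. All 12 macrophage defining markers had counts in both tissues. Among them Adgre1 (F4/80) was at 381, 335 and 342 CPM in muscle and at 233, 207, 211 and 281 CPM in skin, with an adjusted p of 0.0128 that rose to 0.0705 without muscle replicate 1. Csf1r, the receptor for macrophage colony-stimulating factor, spanned 782 to 842 CPM in muscle and 555 to 668 CPM in skin and was not called (log2 difference 0.40, SE 0.14, adjusted p = 0.0603). Lysozyme (Lyz2) overlapped between the tissues, at 12561 to 14026 against 9769 to 15064 CPM.

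Of 14340 genes tested, 1761 (12.3%) differed between muscle and skin at an adjusted p of at most 0.05 in edgeR's quasi-likelihood test, 790 (5.51%) higher in muscle and 971 (6.77%) higher in skin. The skin side held the larger differences: 619 genes were at least 2-fold higher in skin and 234 in muscle, and 144 were at least 8-fold higher in skin against 6 in muscle. The skin side also held more genes of uncertain counting: without the called genes that share sequence with another annotated gene (380) or have no transcript in the annotation used (104), 657 were higher in muscle and 620 in skin, 208 and 400 of them at least 2-fold and 4 and 64 at least 8-fold. The median log2 difference over all genes, muscle minus skin, was -0.02. The shares of 5.51% and 6.77% are the background for the counts of gene lists given below for this contrast. The libraries of the 2 tissues did not overlap for 3864 genes (26.9%), of which 1662 were called. The number of called genes fell to 988 without muscle replicate 1, to 1153 without muscle replicate 3 and to 1090 when the ribosomal RNA gene Rn18s-rs5, which differed between the tissues, entered the fit as a covariate. In genes that share sequence, reads may have been split between copies. The genes named below that share sequence, called or not, are Ctsd, Glb1, Cd63, Itgb5, Spp1, Lyz2, Ly6c2, Cxcl2, Cxcl3, Hspa1a, Mmp3, Serpinb2, Stmn1, Krt14, mt-Co3 and mt-Atp6. Among the largest differences in favour of skin were 3 predicted genes with no transcript in the annotation used, whose nature and copies are therefore not known here. Gm55636 was at 11.2, 8.75 and 9.47 CPM in muscle and at 359, 331, 138 and 239 CPM in skin, 27.2-fold higher. Gm56244 and Gm54754 were 25.2-fold and 23.2-fold higher in skin. In all 3 genes every skin library was above every muscle library, as the choice of the largest differences required.

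**Figure D1:**
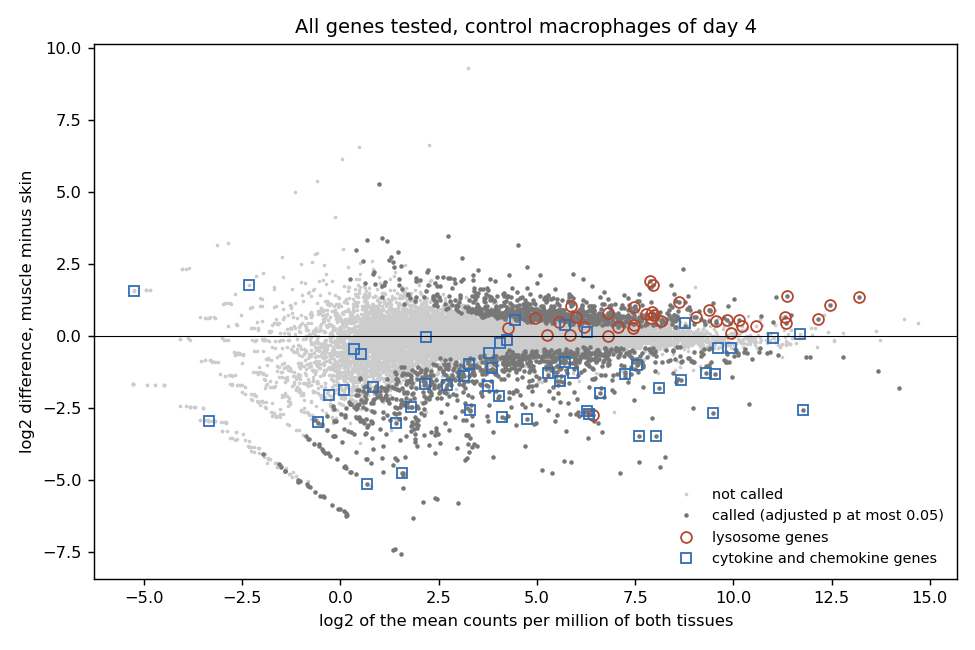
The log2 difference of each gene tested (vertical axis, muscle minus skin) is plotted against the log2 mean CPM of both tissues (horizontal axis). Dark points are the 1761 called genes, circles mark lysosome genes and squares mark cytokine and chemokine genes. Most circles lie above 0, the squares with the largest differences lie below it, and the diagonal streaks at low level are genes with no count in 1 tissue.

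Lysosome genes were higher in muscle. Of 37 tested, 25 were higher in muscle, 1 was higher in skin and 11 were not called, against 5.51% and 6.77% of all genes; their median log2 difference was 0.60, against -0.02 over all genes. Lipa, the acid lipase that frees cholesterol and fatty acids from ingested lipoproteins and membranes, was at 349, 457 and 345 CPM in muscle and at 132, 106, 109 and 100 CPM in skin (log2 difference 1.78, SE 0.26, adjusted p = 6.15e-06). Every muscle library was above every skin library. Psap, the precursor of the saposins that assist sphingolipid breakdown, was at 14304, 14101 and 11830 CPM against 4799, 5236, 4854 and 6112 CPM (log2 difference 1.35, SE 0.18, adjusted p = 5.92e-07). The protease cathepsin D (Ctsd) had a log2 difference of 1.39 (SE 0.19, adjusted p = 1.4e-06) and beta-galactosidase (Glb1) one of 1.05. The exception was Ctsk, a collagen-degrading cathepsin, which was higher in skin at 179, 176, 172 and 75.7 CPM against 22.6, 15.6 and 29.2 CPM in muscle (log2 difference -2.74, SE 0.55, adjusted p = 0.000685). Summed over the list, the muscle libraries held 47174 to 51769 CPM and the skin libraries 25798 to 29005 CPM. With 1 library left out in turn, 17 to 21 lysosome genes were higher in muscle and 1 in skin.

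The lysosome genes and the NF-kappaB targets described further on were also looked at by promoter sequence, since members of each moved together. The CLEAR-type word GTCACGTG (either strand), the sequence to which TFEB-family factors are known to bind, was searched in windows from 250 bases before to 50 bases after each RefSeq start (build GRCm38.p6). It was present for 7 of the 29 tested lysosome genes with a window (24.1%) and for 2.55% of all 27025 genes with one. These were Ctsd, Glb1, Lamp1, Naglu, Ctsa and Atp6v0d1, with log2 differences of 1.39, 1.05, 0.65, 0.62, 0.51 and 0.32, and Mcoln1, which had one of 0.05 and was not called. The calls of Atp6v0d1, Naglu and Lamp1 were lost in 10, 8 and 4 of the alternative fits, left-out libraries among them. Of 19 tested genes with a window from the lipid-associated list described below, 1 held the word, which was again Ctsd. The motif was chosen after the expression values were known, a match is a description of the sequence, and no binding was measured. The 120 bases directly before the start of Ctsd and Glb1 are shown 5′ to 3′ on the gene's strand, with the match in capitals, because these 2 genes had the largest differences among those that held it. Ctsd lies on the minus strand at chr7:142387828-142387947 and Glb1 on the plus strand at chr9:114400958-114401077.
Ctsd: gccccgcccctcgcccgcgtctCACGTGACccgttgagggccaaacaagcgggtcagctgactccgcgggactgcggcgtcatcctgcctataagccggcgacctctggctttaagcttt
Glb1: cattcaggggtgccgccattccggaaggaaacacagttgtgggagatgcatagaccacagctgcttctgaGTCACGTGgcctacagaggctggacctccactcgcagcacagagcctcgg

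Genes of lipid-laden macrophages and of dead-cell uptake moved in the same direction as the lysosome genes. Of 24 lipid-associated genes tested, 9 were higher in muscle, none in skin and 15 were not called (median log2 difference 0.69). Of the 9, 4 (Lipa, Ctsd, Ctsb and Cd63) are also in the lysosome list, and the call of Cd63 was lost in 9 alternative fits, 6 of them with 1 library left out. With no low-count filter, or with the 7 libraries fitted alone, 17 of the 24 were called. Gpnmb, a glycoprotein of lipid-loaded phagocytes, was at 776, 711 and 626 CPM in muscle and at 160, 154, 108 and 135 CPM in skin (log2 difference 2.34, SE 0.46, adjusted p = 0.00055). Trem2, the lipid-sensing receptor, was at 955, 954 and 1038 CPM against 491, 380, 454 and 434 CPM (log2 difference 1.16, SE 0.23, adjusted p = 0.000484). Syngr1 and the lysosomal phospholipase family member Pld3 rose with them, with log2 differences of 1.74 (SE 0.26) and 1.45 (SE 0.23). Spp1 and Apoe, which also belong to the list, did not pass the test. Spp1 (osteopontin) was at 5511 to 7106 CPM in muscle and 2873 to 4646 CPM in skin (adjusted p = 0.194). Apoe was at 23353 to 27450 against 14768 to 20099 CPM (adjusted p = 0.162). The summed level of the 24 genes was 87035 to 95847 CPM in muscle and 53777 to 66671 CPM in skin.

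Of 24 efferocytosis genes tested, 8 were higher in muscle, none in skin and 16 were not called (median log2 difference 0.54). Mfge8, which bridges phosphatidylserine on dying cells to integrins, was at 136, 84.2 and 126 CPM in muscle and at 34.3, 30, 22.1 and 31.3 CPM in skin (log2 difference 1.98, SE 0.28, adjusted p = 1.87e-06). Its integrin partner Itgb5, the lipid receptor Cd300lb and the kinase Mertk had log2 differences of 1.13, 1.29 and 1.25 (SE 0.22, 0.23 and 0.30). The sum of the 30 listed genes was 7870 to 8297 CPM in muscle and 5189 to 7617 CPM in skin, so that skin replicate 2 came close to the muscle libraries.

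**Figure D2:**
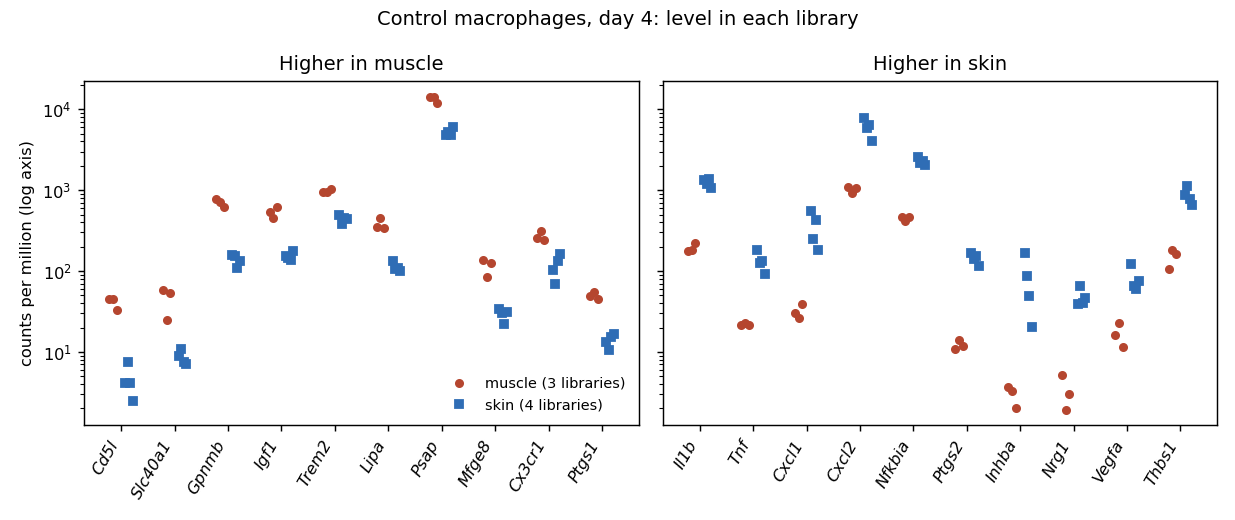
CPM on a log axis are shown for 10 genes higher in muscle (left) and 10 higher in skin (right), with 1 point per library. Circles are the 3 muscle libraries and squares the 4 skin libraries. In each of the 20 genes the 2 sets do not overlap, which was a condition for those chosen as the largest differences.

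Among called genes with at least 20 CPM and no overlap between the tissues, the largest difference in favour of muscle was that of Cd5l. It encodes a secreted scavenger-receptor protein made by tissue macrophages. Cd5l was at 45.4, 45.7 and 33.1 CPM in muscle and at 4.19, 7.58, 4.13 and 2.49 CPM in skin, 8.93-fold higher (log2 difference 3.16, SE 0.41, adjusted p = 3.52e-07). Slc40a1 (ferroportin), which exports iron from the cell, was at 57.5, 24.5 and 53 CPM against 8.9, 10.9, 7.43 and 7.11 CPM (log2 difference 2.39, SE 0.37, adjusted p = 9.72e-06). Iron and haem genes as a list were divided, with 7 of 20 higher in muscle and 3 higher in skin (median 0.47); without muscle replicate 1 or skin replicate 1 the counts were 4 and 1. Igf1, the insulin-like growth factor that supports muscle fibre growth, was at 533, 451 and 612 CPM in muscle and at 155, 146, 138 and 178 CPM in skin (log2 difference 1.79, SE 0.43, adjusted p = 0.00471). The fractalkine receptor Cx3cr1, a marker of mature monocytes and macrophages, was at 254, 316 and 244 CPM against 103, 69.7, 133 and 163 CPM (log2 difference 1.21, SE 0.23, adjusted p = 0.000206). Each of these 4 genes kept the muscle libraries apart from the skin libraries. For Cd5l and other genes chosen as the largest differences, this was a condition of the choice.

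Other genes higher in muscle included enzymes of prostanoid synthesis: the constitutive cyclooxygenase Ptgs1 at 48.6, 55.8 and 45.3 CPM against 13.1, 10.6, 15.5 and 16.7 CPM (log2 difference 1.83, SE 0.24, adjusted p = 5.26e-07), the prostaglandin D synthase Hpgds (1.38) and the thromboxane synthase Tbxas1 (1.17). In the list of arginine, prostaglandin and leukotriene enzymes, 4 of 27 were higher in muscle and 6 in skin. The sterol exporter Abcg1 (log2 difference 1.32, SE 0.19) and the transcription factor Irf8 (1.23, SE 0.15) rose as well. So did the type I receptor for TGF-beta, Tgfbr1 (1.32, SE 0.18), the inhibitory collagen receptor Lair1 (1.47, SE 0.17), the interleukin-18 binding protein Il18bp (2.16, SE 0.39) and the epoxide hydrolase Ephx1 (1.97, SE 0.34). Of 21 genes of resident macrophages tested, 4 were higher in muscle and 1 in skin, against 5.51% and 6.77% of all genes. The other 16 were not called (median of the list -0.08), and without muscle replicate 3 the count for muscle was 2. Folr2 was 438, 433 and 507 CPM against 237, 210, 216 and 201 CPM, with an adjusted p of 0.0129 that became 0.0613 without muscle replicate 3. Lyve1 (19.1 to 31.3 against 12.8 to 44 CPM) and the mannose receptor Mrc1 (267 to 292 against 274 to 387 CPM) overlapped between the tissues.

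Skin macrophages held more transcript of inflammatory cytokines. Of 26 tested, none was higher in muscle, 14 were higher in skin and 12 were not called; the median log2 difference was -1.79, and 9 were higher in skin with Rn18s-rs5 as a covariate. Il1b was at 179, 182 and 220 CPM in muscle and at 1327, 1202, 1362 and 1069 CPM in skin (log2 difference -2.68, SE 0.27, adjusted p = 3.84e-09). Tnf was at 21.6, 23.1 and 21.5 CPM against 182, 125, 133 and 93.1 CPM (log2 difference -2.60, SE 0.29, adjusted p = 1.44e-08). In both genes the muscle libraries lay close together and far below the lowest skin library. Amphiregulin (Areg), an epidermal growth factor receptor ligand, was at 7.68, 6.42 and 5.52 CPM against 57.6, 31.5, 67.9 and 32.3 CPM (log2 difference -2.87, SE 0.42, adjusted p = 4.77e-06). Leukaemia inhibitory factor (Lif) and granulocyte colony-stimulating factor (Csf3) were nearly without counts in muscle, at 0 to 0.622 and 0 to 0.158 CPM, and were at 4.62 to 7.06 and 1.82 to 4.45 CPM in skin. Il6 was not among the called genes (9.94 to 12.2 against 10.7 to 21.2 CPM, adjusted p = 0.417). Summed over the list, skin libraries held 2056 to 2586 CPM and muscle libraries 508 to 617 CPM.

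Chemokine genes followed the same direction. Of 12 CXC chemokines tested, 6 were higher in skin and none in muscle (median -1.62). Of 14 CC chemokines 6 were higher in skin and none in muscle (median -1.29). The count of CC chemokines was 2 without muscle replicate 1 and 3 without muscle replicate 3, without skin replicate 1 or with the Rn18s-rs5 covariate. Cxcl1, a ligand of the neutrophil receptor Cxcr2, was at 30.1, 26.4 and 38.8 CPM in muscle and at 553, 249, 428 and 181 CPM in skin (log2 difference -3.47, SE 0.56, adjusted p = 4.72e-05). Cxcl2, another ligand of that receptor, was at 1086, 913 and 1069 CPM against 7866, 5877, 6337 and 3997 CPM (log2 difference -2.56, SE 0.37, adjusted p = 7.66e-06). Cxcl3 ranged widely among the skin libraries, from 126 to 1047 CPM, above 23.9 to 52.4 CPM in muscle (adjusted p = 0.000836, and 0.0503 when the 7 libraries were fitted alone). The CC chemokines Ccl3 and Ccl4, which attract monocytes and lymphocytes, had log2 differences of -1.30 (SE 0.22) and -1.51 (SE 0.23). The monocyte attractant Ccl2 was at 356, 458 and 457 CPM against 1736, 958, 756 and 794 CPM (adjusted p = 0.00972). This call was lost without muscle replicate 1 (adjusted p = 0.0705) or skin replicate 1 (0.0567). Its receptor Ccr2 overlapped between the tissues, at 489 to 569 and 480 to 892 CPM.

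Of 24 NF-kappaB pathway genes, 14 were higher in skin and none in muscle (median -0.69), and the summed level was 1773 to 1915 CPM in muscle and 4531 to 5702 CPM in skin. Nfkbia, the inhibitor and a target of the pathway, was at 461, 411 and 467 CPM in muscle and at 2574, 2138, 2290 and 2037 CPM in skin (log2 difference -2.34, SE 0.19, adjusted p = 7.09e-12). The inducible cyclooxygenase Ptgs2 was at 10.8, 14 and 12 CPM against 168, 139, 154 and 115 CPM (log2 difference -3.55, SE 0.34, adjusted p = 1.04e-09), opposite in direction to the constitutive Ptgs1. The adaptor Traf1 was at 14.5 to 18.3 against 83.2 to 151 CPM (log2 difference -2.70, SE 0.28). The subunit gene Rela had a log2 difference of 0.06 and was not called.

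The kappaB word, GGGA and TTCC with any 2 bases between them (either strand; matches on the 2 strands can overlap), was searched in the same promoter windows. It was present for 4 of the 10 tested CXC chemokines with a window, which were Cxcl1, Cxcl2, Cxcl3 and Cxcl10, and for 1.63% of all genes with a window. Of 20 NF-kappaB pathway genes with a window, 2 held it (Nfkbia and Nfkb2), and of 16 inflammatory cytokines 2 did (Csf1 and Il6, neither called). Of 8 tested CC chemokines with a window, 1 held it and was not called. Other forms of the site were not searched. The 120 bases before the start are shown for 4 genes that held the word and were higher in skin, 5′ to 3′ with matches in capitals. The run in capitals of the 3 CXC genes is made of 2 overlapping matches. The positions in GRCm38.p6 are chr5:90891125-90891244 for Cxcl1, chr5:90903779-90903898 for Cxcl2 and chr5:90785981-90786100 for Cxcl3, all on the plus strand, and chr12:55492648-55492767 on the minus strand for Nfkbia.
Cxcl1: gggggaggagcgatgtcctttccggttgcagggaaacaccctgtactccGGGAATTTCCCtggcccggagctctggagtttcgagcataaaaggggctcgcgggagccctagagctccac
Cxcl2: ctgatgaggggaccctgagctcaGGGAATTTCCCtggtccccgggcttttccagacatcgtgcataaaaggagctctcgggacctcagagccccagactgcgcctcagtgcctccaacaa
Cxcl3: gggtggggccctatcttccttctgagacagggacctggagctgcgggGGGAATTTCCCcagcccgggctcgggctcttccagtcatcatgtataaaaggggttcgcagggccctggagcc
Nfkbia: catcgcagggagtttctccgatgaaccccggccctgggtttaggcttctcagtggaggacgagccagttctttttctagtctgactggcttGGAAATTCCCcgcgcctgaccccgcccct

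Growth factor genes were divided by kind. Of 27 repair growth factors tested, 3 were higher in muscle and 8 in skin (median -0.43), against 5.51% and 6.77% of all genes. The 3 became 5 or 6 with limma-voom, no filter, the replicate block or the 7 libraries alone. The summed level was higher in muscle (4306 to 4485 against 3081 to 3414 CPM), where Grn and Igf1 belong to the 3. Inhba, the activin A subunit, was at 3.73, 3.31 and 2.05 CPM in muscle and at 167, 87, 48.7 and 20.3 CPM in skin (log2 difference -4.75, SE 0.51, adjusted p = 2.81e-08), a 27.0-fold difference with a wide spread among the skin libraries. Neuregulin 1 (Nrg1) was at 5.19, 1.94 and 3 CPM against 39.5, 65.8, 40.5 and 46.6 CPM (log2 difference -3.83, SE 0.48, adjusted p = 4.04e-07). Vegfa, the endothelial growth factor, was at 16, 22.6 and 11.5 CPM against 121, 64.6, 60.3 and 75 CPM (log2 difference -2.27, SE 0.33, adjusted p = 3.46e-06). Of 28 hypoxia genes tested, Vegfa among them, 5 were higher in skin and 1 in muscle (median -0.52; 3 in skin without muscle replicate 1, 2 or 3 or skin replicate 2). For hypoxia genes the skin count was 9 with no filter or with the 7 libraries alone. Of 28 glycolysis genes 1 was called in each direction; the call for skin was lost when any library other than skin replicate 4 was left out, and 7 were higher in skin with the 7 libraries alone.

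Several sensors of microbes and damage and several monocyte genes were higher in skin, although both lists held genes called in each direction. Clec4e (Mincle), a C-type lectin for mycobacterial and cell-death ligands, was at 50.8, 55.8 and 72.6 CPM in muscle and at 476, 500, 386 and 341 CPM in skin (log2 difference -2.83, SE 0.27, adjusted p = 8.41e-10). The amplifying receptor Trem1 was at 4.98, 6.42 and 9.47 CPM against 60.7, 61.9, 65.5 and 38.0 CPM (adjusted p = 2.53e-07), and the inflammasome sensor Nlrp3 had a log2 difference of -2.78 (SE 0.30). Of 41 pattern recognition receptors, 7 were higher in muscle and 9 in skin (median -0.16). The 7 became 2 without muscle replicate 1 or 3 and 3 without skin replicate 1. Of 20 monocyte genes, 2 were higher in muscle and 8 in skin (median -0.70; 14 in skin with the 7 libraries alone). Versican (Vcan) was at 18.3, 21.6 and 22.2 CPM against 94.7, 159, 112 and 147 CPM (log2 difference -2.62, SE 0.34, adjusted p = 5.45e-07), and thrombospondin 1 (Thbs1) had a log2 difference of -2.51 (SE 0.29). The monocyte marker Ly6c2 was at 105 to 181 CPM in muscle and 226 to 293 CPM in skin and did not pass the test (adjusted p = 0.0925).

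Among 37 macrophage transcription factors, 4 were higher in muscle and 12 in skin (median -0.29). The 4 became 1 without muscle replicate 1 and 2 without muscle replicate 2 or skin replicate 3 or 4. The hypoxia factor Hif1a was at 66, 120 and 86.8 CPM in muscle and at 215, 213, 234 and 190 CPM in skin (log2 difference -1.23, SE 0.21, adjusted p = 6.39e-05). Myc and Id3 had log2 differences of -1.54 (SE 0.24) and -1.98 (SE 0.26). Of 28 AP-1 and early response genes, 15 were higher in skin and none in muscle (median -0.66; 9 with the Rn18s-rs5 covariate), led by Cxcl1 and by the Fos family gene Fosl1 (log2 difference -3.38, SE 0.47). Early response and heat shock genes are known to rise during tissue dissociation. Of 21 heat shock and unfolded protein genes, 6 were higher in skin and 1 in muscle. Hspa1a was at 79.9, 86.9 and 116 CPM against 312, 346, 314 and 312 CPM (log2 difference -1.77, SE 0.21, adjusted p = 7.49e-08). These changes run alongside those of the cytokines and NF-kappaB genes, and the part of cell handling in either was not tested.

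Matrix proteases and inhibitors were called in both directions, 3 of 30 higher in muscle (1 without muscle replicate 2) and 7 in skin. The shares of all genes were 5.51% and 6.77%. The gelatinase Mmp9 was at 16.8, 15.9 and 26.8 CPM in muscle and at 182, 225, 139 and 77.1 CPM in skin (log2 difference -2.96, SE 0.66, adjusted p = 0.00242). Mmp3 and Serpinb2 had log2 differences of -3.25 (SE 0.57) and -3.10 (SE 0.70). Mmp9 is abundant in neutrophils, whose markers are given below. Arginase 2 (Arg2, -3.08) and the prostaglandin E synthase Ptges (-3.42) were higher in skin. Arginase 1 (Arg1), a marker of alternatively activated macrophages, varied from 162 to 409 CPM among the muscle libraries and from 299 to 816 CPM among the skin libraries and was not called (adjusted p = 0.42).

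Interferon response, oxidative phosphorylation and cell cycle genes showed few differences. Of 44 interferon response genes, none was higher in muscle and 1 in skin (Cxcl10, adjusted p = 0.0227, lost without muscle replicate 1 or 2 and without skin replicate 3 or 4). The median was 0.05, with summed levels of 4501 to 5409 CPM in muscle and 4349 to 5207 CPM in skin. Of 29 oxidative phosphorylation genes of the nucleus, 1 was higher in skin (median -0.01). Of 45 cell cycle genes 4 were higher in muscle, against 5.51% of all genes, and none in skin (median 0.16). The 4 became 1 without muscle replicate 3, and 2 without muscle replicate 1 or 2 or skin replicate 2 or 3. The share called in each of these 3 lists, in both directions together, lies below the 12.3% of all genes. A gene that did not pass the test is not shown to be equal. Of 18 genes of MHC class II and antigen presentation, 1 was higher in muscle and 3 in skin (median 0.00), against 5.51% and 6.77% of all genes. Without muscle replicate 3 the count for skin was 1. H2-Ab1 was at 3057 to 3971 against 2904 to 4612 CPM.

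**Figure D3:**
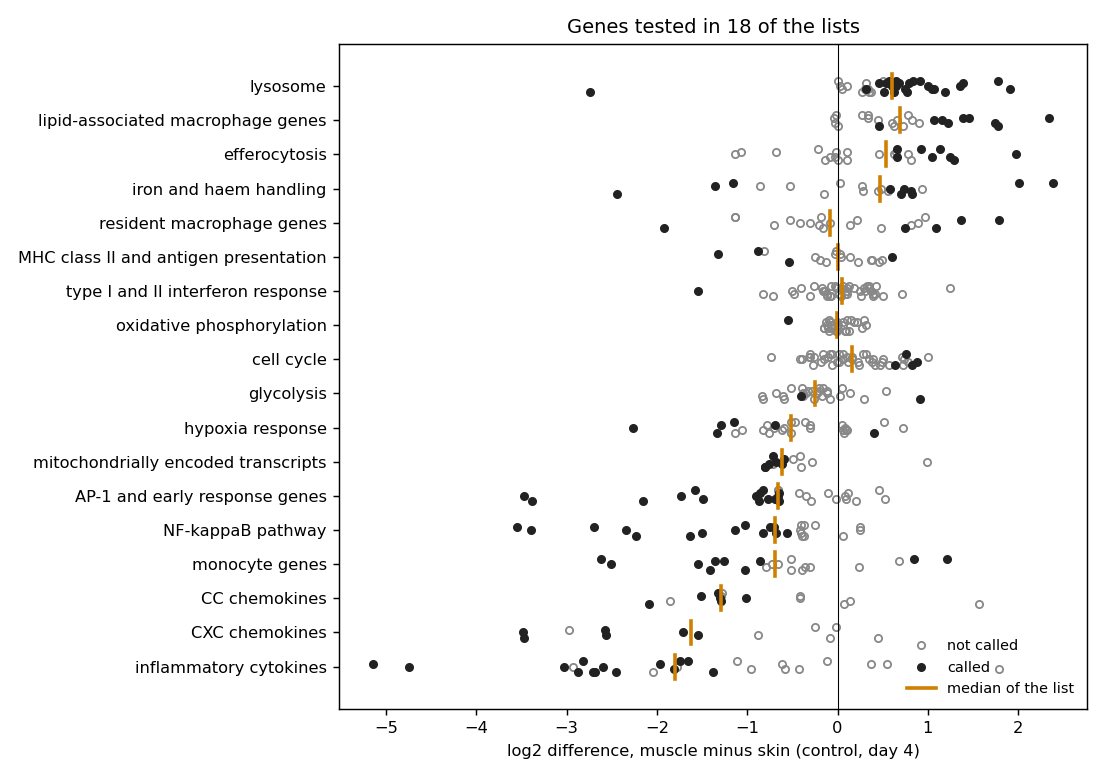
Each point is the log2 difference (horizontal axis, muscle minus skin) of 1 gene tested, in 18 of the lists (rows). Filled points are called genes and the upright bars are list medians, from 0.69 for lipid-associated genes to -1.79 for inflammatory cytokines, which overlap other lists in part.

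The tissue contrast was then set beside the same contrast in other libraries. These do not enter its group means, but they belong to the fit from which its spread was estimated. In the Treg-depleted libraries of day 4, 23.4% of genes were called, and 564 of the 790 genes higher in muscle (71.4%, and 36.8% of the 1534 higher in muscle there) and 725 of the 971 higher in skin (74.7%, and 39.9% of 1818) were called in the same direction, with none called in the opposite one. In the control libraries of day 7, where 11.9% of genes were called, 232 of the 790 (29.4%, and 31.3% of 741) and 423 of the 971 (43.6%, and 43.6% of 970) were called in the same direction, and 3 and 2 were called in the opposite one. Lysosome genes higher in muscle numbered 24 of 37 in the depleted libraries (10.7% of all genes) and 7 of 37 at day 7 (5.17%). Inflammatory cytokines higher in skin numbered 18 of 26 (12.7%) and 14 of 26 (6.76%). Other lists differed more at day 7. Of 24 lipid-associated genes, 11 were higher in muscle and none in skin in the depleted libraries, against 4 and 1 at day 7 (median 0.21). Of 24 efferocytosis genes, the counts were 12 and 3, against 4 and 5 at day 7. Of 14 CC chemokines, 8 were higher in skin in the depleted libraries and 2 at day 7 (median 0.17), and none in muscle. Cd5l had log2 differences of 4.87 and 5.11 in the depleted and the day 7 libraries, Lipa of 1.86 and 1.61, Ptgs2 of -3.63 and -3.61, and Inhba of -5.84 and -5.42, all called.

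A direct test of whether the tissue difference changed from day 4 to day 7 called 83 genes (0.579%), with a positive difference in 41 (0.286%) and a negative one in 42 (0.293%). Itgb5 went from a log2 difference of 1.13 to -0.42 (change 1.55, SE 0.31, adjusted p = 0.0138, and 0.0579 without muscle replicate 1). The lysosome gene Ctsd went from 1.39 to 0.25 (change 1.14, SE 0.27, adjusted p = 0.0378). In Traf1, the skin excess shrank from -2.70 to -0.85, as the muscle libraries rose from 14.5 to 18.3 CPM at day 4 to 48.7 to 63.2 CPM at day 7 (adjusted p = 0.0111; 0.0579 without muscle replicate 1). Cd83, an activation marker of antigen-presenting cells, was higher in skin at day 4 and not at day 7 (log2 differences -0.88 and 0.57). Muscle went from 184 to 228 CPM up to 563 to 746 CPM while skin was at 343 to 436 and 372 to 525 CPM (adjusted p = 0.0138; 0.0517 without muscle replicate 3). Mmp8 moved the other way, from -0.72 to -3.33 (adjusted p = 0.00999). The predicted genes Gm55636, Gm56244 and Gm54754 went from log2 differences of -4.76, -4.65 and -4.54 to -1.30, -0.84 and -0.83 (adjusted p = 0.0298, 0.0186 and 0.0250), and these calls were lost when any 1 muscle library was left out. The number of genes called by this test ranged from 19 to 54 when 1 library of day 4 was left out.

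The corresponding test against the Treg-depleted libraries of day 4 called 38 genes (0.265%), with a positive difference in 15 (0.105%) and a negative one in 23 (0.160%). Cx3cr1 had a log2 difference of 1.21 in control and 3.73 in depleted mice (difference -2.52, SE 0.34, adjusted p = 3.09e-05): muscle was at 244 to 316 CPM in control and 238 to 296 CPM in depleted mice, and skin at 69.7 to 163 and 13.9 to 31.6 CPM. Stmn1, a microtubule regulator of dividing cells, showed the same pattern, with log2 differences of 0.49 and 2.51 (adjusted p = 0.00174). Of 45 cell cycle genes, 7 were called by this test. In depleted mice 33 of the 45 were higher in muscle (10.7% of all genes), against 4 in control mice (5.51%). Il6 was not called in control mice and was higher in skin in depleted mice, where skin libraries held 48.1 to 234 CPM and muscle libraries 6.12 to 9.13 CPM (difference 3.69, SE 0.60, adjusted p = 0.00112). Hspa1a had log2 differences of -1.77 in control and -4.26 in depleted mice (adjusted p = 2.77e-06), with 79.9 to 116 CPM in muscle of control and 15.3 to 17.9 CPM in muscle of depleted mice. Leaving out 1 library of day 4 control cells gave 11 to 35 genes.

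**Figure D4:**
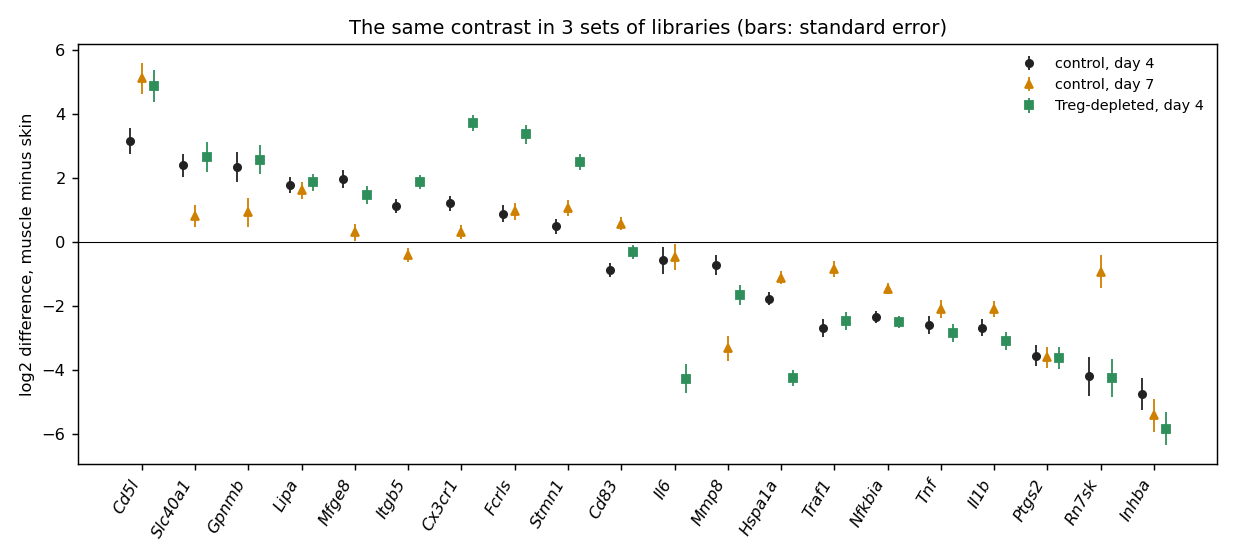
Log2 differences between muscle and skin (vertical axis, muscle minus skin) are shown for 20 genes in control libraries of day 4 (circles), control libraries of day 7 (triangles) and Treg-depleted libraries of day 4 (squares), with standard errors as bars. Ptgs2, Inhba and Lipa lie close together in the 3 sets, Itgb5 is lower at day 7, and Cx3cr1, Il6 and Hspa1a lie apart in the depleted libraries.

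Markers of some other cells moved with the tissue. In bulk libraries fewer cells of a type and less RNA per cell cannot be told apart. Summed markers of skeletal muscle fibres were at 201, 249.5 and 232 CPM in muscle and at 93.4 to 125 CPM in skin. Of 20 tested, 4 were called (11 with limma-voom or with the 7 libraries alone), all higher in muscle, among them titin (Ttn, 28.8, 36 and 30.3 against 7.33, 7.28, 4.75 and 10.3 CPM). Neutrophil markers summed to 237 to 271 CPM in muscle and 486 to 767 CPM in skin, and Ly6g had no count in either. Of 23 tested, 3 were called, all higher in skin (against 6.77% of all genes): Mmp9, Il1r2 and Lcn2. The call of Lcn2 was lost when any 1 library was left out. With DESeq2 or with the 7 libraries alone 8 neutrophil markers were higher in skin, and with no filter 12. Fibroblast and mural cell markers summed to 329 to 527 against 418 to 1284 CPM, overlapping between the tissues. Of 28 tested, 2 were higher in skin, a share near the 6.77% of all genes (1 without muscle replicate 1 or 2, 5 with DESeq2 and 12 with no filter). Markers of mast cells, basophils and eosinophils summed to 28.4 to 29.8 against 51.9 to 145 CPM. Of 20 tested, 4 were higher in skin, against 6.77% of all genes (1 with limma-voom, 8 with DESeq2 and 10 with no filter). Of 12 keratinocyte markers tested, 5 were called, all higher in skin, against 6.77% of all genes (3 without skin replicate 1, and 2 with the Rn18s-rs5 covariate). The sum of the list ran the other way, at 800.5, 931 and 1242 CPM in muscle and 479.5 to 749.9 CPM in skin. Most of it was Fabp5, a fatty acid binding protein that macrophages also express, at 776 to 1208 CPM in muscle and 351 to 626 CPM in skin (not called, adjusted p = 0.119). Without Fabp5, a sum added after seeing the data, the markers were at 24.1, 21.2 and 34.4 CPM in muscle and at 124, 102, 108 and 128 CPM in skin. Krt14 had no count in muscle, where 3 counts are 0.469 to 0.622 CPM, and was at 11, 3.34, 0.413 and 6.04 CPM in skin. Col17a1, Lor and Krt1 had no count in either tissue. T and NK cell markers (80.9 to 95 against 67.9 to 98.9 CPM) and dendritic and Langerhans cell markers (787 to 864 against 699 to 946 CPM) overlapped between the tissues in sum. Of 21 T and NK cell markers tested, 1 was called in each direction. Of 19 dendritic and Langerhans cell markers tested, 5 were higher in skin and 1 in muscle (median -0.84), against 6.77% and 5.51% of all genes. Their skin count was 1 without muscle replicate 1 or 3 or skin replicate 2. With 3 libraries against 4, the smallest two-sided p that an exact permutation test can give is 0.0571, and it was reached by the sums of muscle fibre, myogenic, neutrophil, mast cell, endothelial and keratinocyte markers, the last with and without Fabp5. The part of these cells in the cytokine, chemokine, protease and growth factor results was not tested.

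RNA that carries no poly(A) tail differed as well, although the libraries were primed with oligo-dT. The small nuclear RNA Rn7sk was at 35.1, 26.1 and 33 CPM in muscle and at 774, 717, 314 and 511 CPM in skin (log2 difference -4.20, SE 0.60, adjusted p = 5.89e-06). The ribosomal RNA gene Rn18s-rs5 was at 6792, 13872 and 5120 against 30040, 20817, 30152 and 38365 CPM (adjusted p = 0.0367, lost without muscle replicate 1 at 0.153 and without muscle replicate 3, skin replicate 1, 3 or 4). Transcripts of the mitochondrial genome, most of which do carry a poly(A) tail, also differed. Of 13, 7 were higher in skin and none in muscle (median -0.62), with sums of 9124 to 9165 CPM against 11767 to 16159 CPM. The 7 became 3 without muscle replicate 1 or skin replicate 2, 4 without muscle replicate 2 and 1 with Rn18s-rs5 as a covariate. With the covariate, mt-Co3 and mt-Atp6 were no longer called (adjusted p = 0.0843 and 0.117). Neither were Atp6v0d1, Axl, Ccl2, Cd63, Cd83, Cxcl10, Folr2, Lcn2, Lpl and Naglu. Lipa, Gpnmb, Il1b, Tnf, Cxcl1, Nfkbia and Inhba stayed called. Of the 1761 genes called in the main fit, 965 were also called in the same direction with the covariate.

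**Figure D5:**
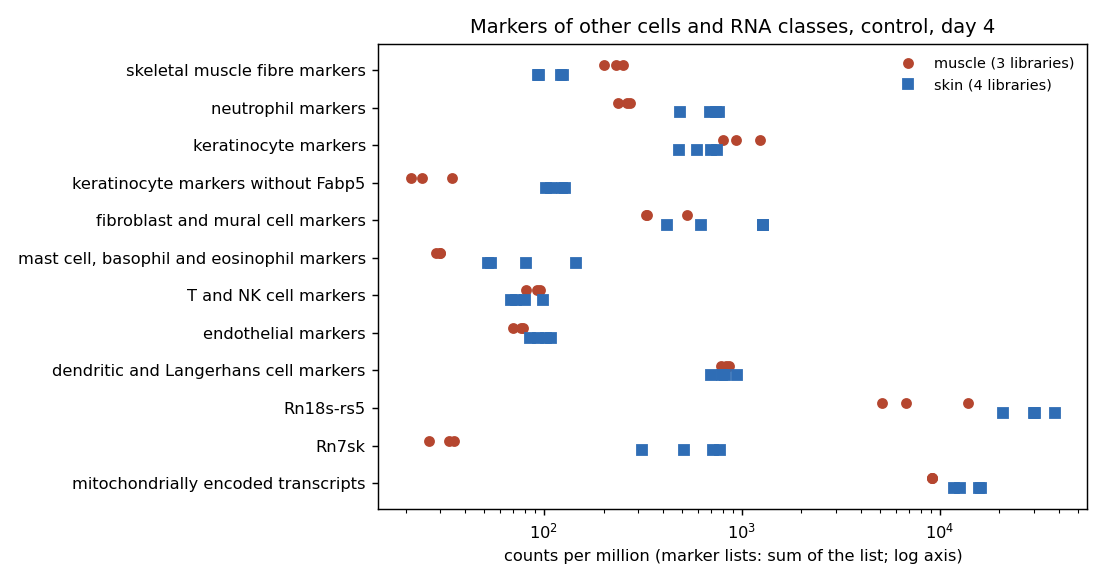
CPM on a log axis, summed over marker lists of other cells or given for single RNA species (rows), are shown for the 3 muscle libraries (circles) and the 4 skin libraries (squares). The sets do not overlap for muscle fibre, neutrophil, keratinocyte, mast cell and endothelial markers, Rn18s-rs5, Rn7sk and mitochondrially encoded transcripts, and they overlap for the other rows.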

How the data were processed

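Macrophage RNA was primed with oligo-dT and tagged with unique molecular identifiers, per the labels' protocols. The authors' deposited table holds estimated counts per gene that need not be whole (19.4% of the values above 0 lie more than 0.01 from a whole number). The submitters' processing notes name STAR, featureCounts, limma and the builds GRCm38 and GRCm39, with no versions or roles; nothing in those sources says whether identifiers were collapsed. The table has 57010 genes, of which 52029 identifiers matched the gene name table.

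Counts were rounded and tested with edgeR 4.0.16 (R 4.3.3): TMM factors, filterByExpr by group, 1 robust quasi-likelihood fit of 12 groups and 44 libraries, and Benjamini-Hochberg adjustment over 14340 genes with a threshold of 0.05. This adjusted p is the one printed beside every gene. Fold changes are model estimates, signed as muscle minus skin, with SE. CPM use the same TMM factors. Replicates of a group differed by more than sampling noise (chi-square per degree of freedom 6.45 to 9.18 over pairs), so each counted as 1 sample. Sums over marker lists were compared with two-sided exact permutation tests. Alternatives were RLE factors, library totals alone, no filter, DESeq2 1.42.0, limma-voom 3.58.1, the 7 libraries alone, a replicate block, a Rn18s-rs5 covariate and each library left out. The scripts were tested on simulated data.

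The comparison and all 45 gene lists were chosen with earlier results of these data known. Named genes begin with the 12 largest differences in each direction. These were taken from called genes with at least 20 CPM in 1 tissue and no overlap between the tissues. Up to 4 called members per list and direction were added without these conditions on level and overlap. Some of them, such as Csf3, were below 20 CPM in both tissues. The 4 largest per direction of each test of a difference between contrasts followed, and a panel of known macrophage genes, called or not. Not every gene that these rules allow is printed. Genes named for their promoter word, genes shared between lists, single subunit genes and single markers of other cells were chosen after their values were seen. Shared sequence means that a share of 0.05 or more of a gene's words of 31 bases is found in transcripts of other genes. Promoters are from RefSeq, build GRCm38.p6.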

Additional observations from a re-analysis of the deposited data

Results flagged for a closer look

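In 5 of the 111 sets of 4 skin libraries looked at, 1 library stood apart from the other 3 by Dixon's criterion, which chance meets in about 1 of 20 sets. Abcg1 was at 67.9 CPM in skin replicate 3 and at 96.5 to 101 CPM in the others. Ctsk was at 75.7 CPM in skin replicate 4 and at 172 to 179 CPM in the others, and it was higher than in muscle in all 4. Ephx1 was at 8.11 CPM in skin replicate 1 against 4.54 to 4.98 CPM, Hspa1a at 346 CPM in skin replicate 2 against 312 to 314 CPM, and Mmp8 at 37.8 CPM in skin replicate 3 against 26.2 to 28.1 CPM.

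The tissue contrast itself differed between sets of libraries for some of the genes described. Between days 4 and 7 in control cells, the log2 contrast of day 4 minus that of day 7 was 1.55 for Itgb5 and 1.14 for Ctsd. It was -1.85 for Traf1, -1.45 for Cd83 and 2.61 for Mmp8, and -3.46, -3.81 and -3.71 for Gm55636, Gm56244 and Gm54754. Between control and depleted cells at day 4, the log2 contrast in control minus that in depleted cells was -2.52 for Cx3cr1, -2.02 for Stmn1, 3.69 for Il6 and 2.50 for Hspa1a. The sets compared do not share libraries, and both tests came from the fit over all 44.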

How the results depend on the processing

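Of 83 called differences printed, 67 stayed called in the same direction under every alternative run and 16 lost the call in at least 1, 12 of them with the Rn18s-rs5 covariate and 9 without muscle replicate 1; none reversed. The 1761 genes called became 1090 (503 higher in muscle, 587 in skin) with the covariate, and 988 to 1513 with 1 library left out (462 to 670 higher in muscle, 526 to 850 in skin); other alternatives stayed within 1.5 times. The cause was not tested. Without genes that share sequence or have no transcript in the annotation, an alternative chosen after seeing the data, 657 were higher in muscle and 620 in skin, against 790 and 971. Leaving out Fabp5, also chosen after seeing the data, turned the difference of the summed keratinocyte markers from 361 to -88.9 CPM. The 83 genes whose contrast differed between days became 194 with DESeq2, 400 with no low-count filter and 19 to 54 with 1 library left out. The 38 whose contrast differed between control and depleted cells became 90, 224 and 11 to 35. Neither of these tests was compared under the Rn18s-rs5 covariate, library totals alone or limma-voom. With the replicate number as a block, 1827 genes were called. Deviations of same-numbered libraries of the tissues correlated at -0.07 to 0.07, and those of other-numbered libraries at -0.08 to 0.07. So few pairs cannot show whether the numbers pair samples. Each mouse had 1 injury, and the libraries were treated as unpaired. List counts were recomputed under all alternatives, also after seeing the data. Besides the changes given beside the results, the resident macrophage genes higher in muscle went from 4 to 7 or 8 with limma-voom, the block, no filter or the 7 libraries alone. With no filter cell cycle genes went from 4 to 7 and keratinocyte markers from 5 to 8, and with the 7 libraries alone mitochondrial transcripts went from 7 to 11. With limma-voom or the 7 libraries alone matrix genes higher in muscle went from 3 to 5. With the covariate the muscle side fell from 7 to 3 for pattern recognition receptors, from 4 to 2 for transcription factors, from 3 to 1 for matrix genes and from 4 to 1 for cell cycle genes, and the skin side from 3 to 1 for iron and for MHC class II genes. Genes near 3 counts per library, under about 0.622 CPM in the muscle libraries, are at the limit of what this depth shows.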
